A study of Homo sapiens with 6 samples.

Results

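DEK chromatin immunoprecipitation was examined at 3 genes that are joined in leukemia, namely DEK itself, NUP214 and SET. A peak belonged to a gene where it overlapped the gene body extended by 10 kb on each side, in GENCODE release 44 on GRCh37, whose chromosomes carry the sequence of hg19. By this rule 1 of 15017 peaks in DEK replicate 1 and 29 of 152779 peaks in DEK replicate 2 lay at the 3 genes. The chromatin came from U937, an established human myeloid cell line, which was crosslinked with 1% formaldehyde for 15 min. The labels list 2 precipitations with an antibody against DEK, 2 with an antibody against the histone mark H3K4me3 and 2 samples of chromatin without an antibody. The last gave no peak list and was not used here. All samples came from untreated cells of 1 line, so that the replicates measure the spread between precipitations. The lists do not hold the total reads of a sample, so that the depth behind each list could not be computed.

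DEK is an abundant nuclear protein that binds DNA and histones and alters the topology of DNA in chromatin. NUP214 is a nucleoporin on the cytoplasmic face of the nuclear pore, where it takes part in the export of RNA and protein. SET is a histone chaperone and an inhibitor of protein phosphatase 2A. A translocation between chromosomes 6 and 9 fuses DEK to NUP214 in acute myeloid leukemia, and a deletion within chromosome 9 fuses SET to NUP214, mostly in T-cell leukemia. H3K4me3 is found at active transcription start sites (TSSs) and was used to locate them in the same cells.

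The promoters carry the question of whether DEK binds its own gene and those of its partners. They are shown as RefSeq gives them, from 250 bases before to 50 bases after the TSS, 5′ to 3′ on the strand of the gene. The RefSeq table is on GRCh38.p14, and each sequence was found once, without a mismatch, on the chromosome of its gene in GRCh37, which gives the positions here. The capitals mark CCAAT (the box bound by NF-Y), AANATGG (YY1) and CACGTG (the USF1 E-box) on either strand.
DEK promoter, chr6:18264712-18265011, minus strand: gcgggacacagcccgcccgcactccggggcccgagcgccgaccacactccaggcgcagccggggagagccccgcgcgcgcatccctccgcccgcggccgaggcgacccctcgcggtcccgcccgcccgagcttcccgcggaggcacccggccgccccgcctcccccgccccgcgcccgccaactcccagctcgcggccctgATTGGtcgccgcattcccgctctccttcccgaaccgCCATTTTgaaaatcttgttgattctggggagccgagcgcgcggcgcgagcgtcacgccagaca
NUP214 promoter, chr9:134000723-134001022, plus strand: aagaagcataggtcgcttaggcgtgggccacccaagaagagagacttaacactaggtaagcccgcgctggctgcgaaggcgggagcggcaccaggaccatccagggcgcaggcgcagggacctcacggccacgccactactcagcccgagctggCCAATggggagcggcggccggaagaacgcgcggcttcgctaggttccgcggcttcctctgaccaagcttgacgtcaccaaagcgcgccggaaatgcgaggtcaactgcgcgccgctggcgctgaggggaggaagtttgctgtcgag
SET promoter of the canonical transcript, chr9:131451251-131451550, plus strand: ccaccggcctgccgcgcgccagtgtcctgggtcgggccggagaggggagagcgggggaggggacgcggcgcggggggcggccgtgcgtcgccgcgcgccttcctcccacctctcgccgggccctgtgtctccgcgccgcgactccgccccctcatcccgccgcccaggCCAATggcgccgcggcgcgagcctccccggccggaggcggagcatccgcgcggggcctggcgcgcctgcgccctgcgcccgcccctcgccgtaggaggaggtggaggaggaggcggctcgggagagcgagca
SET promoter farthest upstream, chr9:131445453-131445752, plus strand: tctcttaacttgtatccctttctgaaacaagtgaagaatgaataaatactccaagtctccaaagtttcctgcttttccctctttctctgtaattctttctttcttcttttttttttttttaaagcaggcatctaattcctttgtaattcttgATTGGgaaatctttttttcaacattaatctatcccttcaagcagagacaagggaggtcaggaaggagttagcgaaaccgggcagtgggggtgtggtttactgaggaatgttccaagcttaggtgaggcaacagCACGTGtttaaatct

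The DEK promoter was rich in G and C (76.0%, against a median of 58.7% over 35116 RefSeq promoters). It held 1 CCAAT box 49 bases before the TSS, 1 AANATGG 13 bases before the TSS and 6 GC boxes (GGGCGG), some of which overlapped. The E2F motifs TTTCGCGC and TTTGGCGC were searched on both strands and were not in this window. A CCAAT box was present in 34.6% of all RefSeq promoters, AANATGG in 15.6%, GGGCGG in 45% and either E2F motif in 1.15%. The other 3 promoters shown also held 1 CCAAT box each, at 96 bases before the TSS for NUP214, 82 for the canonical TSS of SET and 98 for its upstream TSS. CACGTG, found in 7.26% of all promoters, was present only in the upstream SET promoter among the 4 shown. GGAA, the core of the motif bound by PU.1 and other ETS factors, was in 95.5% of all promoters and in each of these 4. In the upstream SET promoter 1 GGAA shared a base with the CCAAT box, and no other pair of different motifs overlapped in the 4 promoters.

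DEK (ENSG00000124795, chr6:18224091-18264779, minus strand) had 1 peak in replicate 1 and 7 in replicate 2, and the lists shared no interval at the gene. The peak of replicate 1 (chr6:18264918-18265577) was upstream of the gene. Its middle lay 468 bp upstream of the nearest TSS of DEK, and so within 1 kb, the distance used by the study to call a gene bound. The study counted only peaks found in both precipitations. By that rule as rebuilt here, with 4453 shared intervals from overlaps of at least 1 bp, DEK was not bound at its start. The study's own set of shared peaks differs in number from these intervals. The replicate 1 peak held 23 tags (exact Poisson 95% interval 14.6 to 34.5, counting error only), with a fold enrichment of 5.86 over the local background model. The score of MACS is -10 times the log10 of the p-value, and for this peak it was 50.45, where the lowest score of the list was 50 and the median 68.8. By score and tags the peak was thus close to the weakest that were called, as only 1.88% of the replicate 1 peaks had a lower score and 4.23% had fewer tags. By fold enrichment it was near the middle of the list, above 55.54% of the peaks. The false discovery rate was 100% for this peak, as for all peaks of replicate 1.

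In replicate 2 no peak lay within 1 kb of a TSS of DEK. The peaks nearest to the replicate 1 peak were 5447 bp farther upstream and 5170 bp farther into the gene. A peak list holds no signal below its threshold, so that a smaller enrichment at the DEK start in replicate 2 cannot be told apart from none. Among all 20163 protein-coding genes, the middle of a peak lay within 1 kb of a TSS for 8.45% in replicate 1, for 56.9% in replicate 2 and for 4.38% among the shared intervals. The pattern at DEK, a start-site peak in replicate 1 without one in replicate 2, was found for 455 genes or 2.26%, which is 26.7% of the 1704 genes with such a peak in replicate 1. The reverse pattern, a start-site peak in replicate 2 without one in replicate 1, was found for 50.7% of the genes, NUP214 and SET among them.

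The sequence under this peak is shown because it is the only one at the DEK start. The 201 bases around the summit (chr6:18265010-18265210, minus strand, 5′ to 3′) run up to the start of the promoter shown above, and the summit lies 349 bp upstream of the canonical TSS.
Summit of the replicate 1 peak at DEK: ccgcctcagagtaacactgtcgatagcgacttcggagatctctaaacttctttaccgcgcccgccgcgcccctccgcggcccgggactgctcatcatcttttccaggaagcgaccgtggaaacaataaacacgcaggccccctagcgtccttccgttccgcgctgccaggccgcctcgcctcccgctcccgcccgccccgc
The window had a GC content of 65.7% and 25 CpG dinucleotides, and it held 5 GGAA cores, of which 1 began at the summit, and 2 overlapping GC boxes. Over the summit windows of 14925 replicate 1 peaks, GGAA was present in 80.9% and the GC box in 8.9%. The window held no CCAAT box, no YY1 motif, no E2F motif and no E-box. The peak covered 94 of the 300 bases of the promoter. It overlapped an H3K4me3 peak in each replicate, chr6:18262686-18266115 in replicate 1 and chr6:18264944-18265962 in replicate 2. Another H3K4me3 peak of replicate 2, chr6:18262510-18264856, was separated from the latter by 87 bp and did not overlap the DEK peak. The canonical TSS of DEK was covered by H3K4me3 in both replicates.

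**Figure D1:**
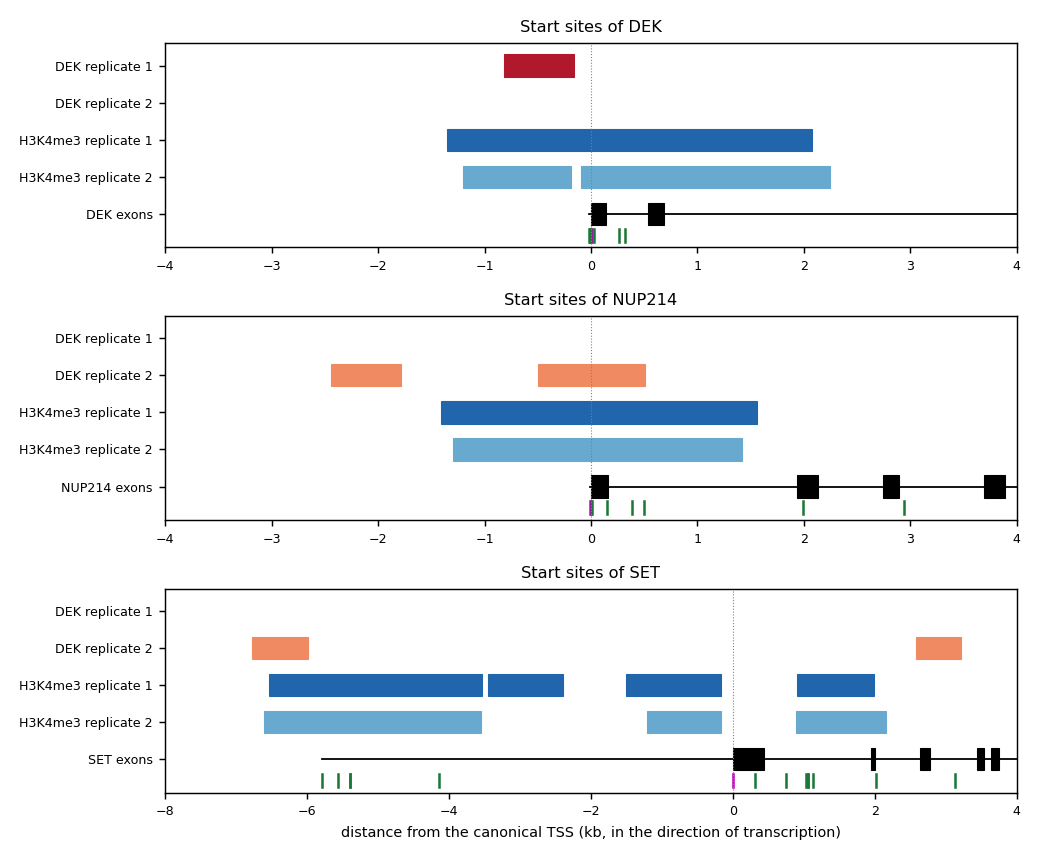
Peaks around the start sites of DEK, NUP214 and SET, with the distance from the canonical TSS in kb on the horizontal axis and 1 row per peak list. Black boxes are exons of the canonical transcript, the magenta tick is its TSS and green ticks are the TSSs of other transcripts. DEK had a peak at its start in replicate 1 alone, NUP214 in replicate 2 alone, and at SET replicate 2 had 1 peak before the upstream starts and 1 over an internal start, with none at the canonical TSS.

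NUP214 (ENSG00000126883, chr9:134000960-134110050, plus strand) had 17 peaks in replicate 2 and none in replicate 1. One of them spanned the start of the gene (chr9:134000479-134001482), with its middle 7 bp downstream of the canonical TSS and its summit in exon 1. This peak held 41 tags (29.4 to 55.6) and was enriched 6.79-fold, at a score of 216.39. The latter was above that of 96.28% of the replicate 2 peaks. All 300 bases of the promoter shown above lay inside it, and H3K4me3 peaks covered the same promoter in both replicates. Another peak, with 18 tags and a score of 103.73, had its middle 2113 bp upstream of the canonical TSS. Replicate 1 had no peak nearer than 21102 bp downstream of the gene, where a peak of 91 tags lay closest to the TSS of FAM78A. That peak was shared with replicate 2 and gave the shared interval nearest to NUP214, 21547 bp from the gene.

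Inside NUP214 the summits of 9 peaks lay in introns and those of 2 in exons, the first and exon 22, while 5 lay downstream of the gene and 1 upstream. The peak over exon 22 (chr9:134049162-134049932, 22 tags, score 138.04) also had its middle within 1 kb of an annotated TSS, that of the short internal transcript NUP214-215, which had no H3K4me3 in either replicate. Intron 30, the longest at 13494 bp, held 4 peaks of 12 to 26 tags, and the highest score inside an intron was 152.62 (24 tags) in intron 32. The highest score in the window, 233.03 with 53 tags, belonged to a peak just downstream of the gene (chr9:134110690-134112253). It overlapped no H3K4me3 peak.

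SET (ENSG00000119335, chr9:131445703-131458679, plus strand) had 5 peaks in replicate 2 and none in replicate 1, where the nearest peak was 360003 bp away. The gene has a cluster of upstream starts and, 5798 bp downstream of the first, the TSS of its canonical transcript. A replicate 2 peak lay before the upstream cluster (chr9:131444722-131445516, 24 tags, 15.4 to 35.7), with its middle 584 bp upstream of the first TSS. Its score of 53.62 was above that of only 7.03% of the list. The peak covered 64 of the 300 bases of the upstream promoter, and H3K4me3 covered all of them in both replicates. No DEK peak was called at the canonical TSS, whose promoter had a GC content of 81.0%. The nearest was in intron 3, with its middle 2900 bp downstream (chr9:131454089-131454713, 19 tags, score 131.94). That peak covered the TSS of the internal transcript SET-210, 229 bp from its middle, which was the only TSS of SET inside a DEK peak and had no H3K4me3 in either replicate. The remaining 3 peaks of 28 to 45 tags were downstream of SET, and for them the nearest TSS was that of PKN3, a protein kinase gene.

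H3K4me3 at SET fell into separate peaks around the starts. The canonical TSS itself lay in a gap between them, since the peaks on its upstream side ended at 131451335 in replicate 1 and 131451330 in replicate 2 and those on its downstream side began at 131452401 and 131452386. The SET window had 5 H3K4me3 peaks in replicate 1 and 4 in replicate 2, which per 100 kb was more than at 98.2% and 97.6% of the protein-coding genes. These counts include 1 peak in each replicate at the start of the neighbouring gene PKN3, with its middle 250 and 276 bp from that TSS. The gene body of SET met 4 and 3. DEK had 2 in each replicate, and NUP214 had 3 and 1. A window with at least 1 H3K4me3 peak was found for 78.8% of the genes in replicate 1 and 72.7% in replicate 2. The middle of such a peak lay within 1 kb of a TSS for 58.3% and 55.8% of the genes, and for 54.7% in both replicates. A TSS of each of the 3 genes was inside an H3K4me3 peak in both replicates, as for 55.2% of the protein-coding genes. Among those 11126 genes, 13.7% had a start-site peak of DEK in replicate 1, 72.3% in replicate 2 and 7.4% a shared interval there.

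**Figure D2:**
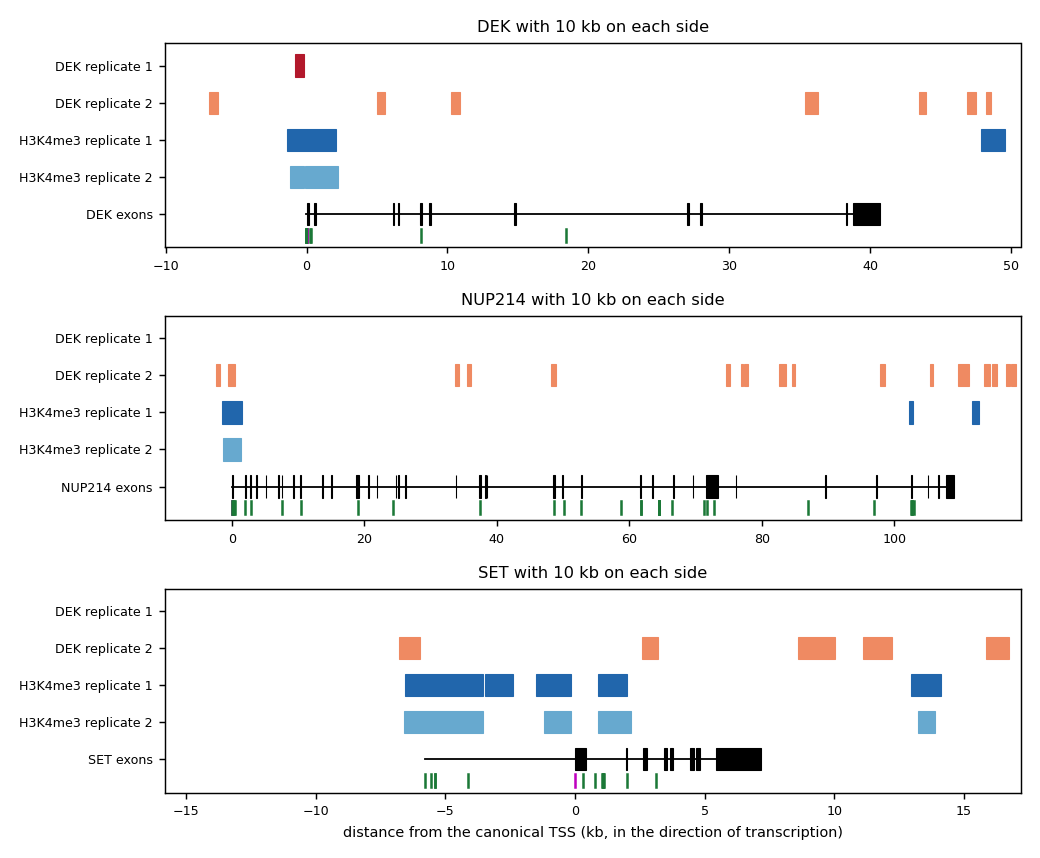
Peaks over each whole gene with 10 kb on each side, drawn as in the plot of start sites, with the distance from the canonical TSS in kb on the horizontal axis. The 7, 17 and 5 peaks of DEK replicate 2 are spread over DEK, NUP214 and SET and their flanks, and the single peak of DEK replicate 1 lies before DEK.

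Of the 3 genes, 1 had a peak of replicate 1 in its window, all 3 had peaks of replicate 2 and none had a shared interval. Over all protein-coding genes these shares were 32.6%, 90.9% and 15.7%, so that finding no shared interval at 3 genes is close to the background. DEK was the only one of the 3 with peaks of both lists in its window, overlapping or not, which held for 31.8% of the genes. In replicate 2 the windows held 11.53 (DEK), 13.17 (NUP214) and 15.16 (SET) peaks per 100 kb, where the median over protein-coding genes was 9.2. These densities were above those of 59.0%, 64.8% and 71.0% of the genes. The peaks covered 6.7%, 9.75% and 14.77% of the 3 windows. The number of peaks at NUP214 goes with its length, as its window is 129.1 kb long against 60.7 kb for DEK and 33.0 kb for SET.

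The breaks of the translocation between DEK and NUP214 are known to lie in intron 9 of DEK and intron 17 of NUP214, and both introns were looked at by number in the canonical transcripts. DEK intron 9 (chr6:18226474-18236682, 10209 bp) held 1 peak of replicate 2 (chr6:18228463-18229383), with 29 tags (19.4 to 41.6) and a fold enrichment of 7.26. With a score of 196.37, above 95.09% of the list, it was the highest-scoring peak at DEK. NUP214 intron 17 (chr9:134027282-134034769, 7488 bp) was met at its 3′ end by a peak (chr9:134034689-134035288, 16 tags, score 98.68) that went on over exon 18 into intron 18, where its summit lay. Intron 18 held 1 further peak of 12 tags. Neither intron had a peak of replicate 1 or of H3K4me3 in either replicate.

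Words of 31 bases that occur more than once in GRCh37, counting both strands, were used to describe the sequence under the peaks. In the peak of DEK intron 9 44.9% of the words were repeated, and in that at the end of NUP214 intron 17 43.7%.

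Over the 29 replicate 2 peaks at the 3 genes the share of repeated words was 0.0% to 66.7%, with a median of 43.7%, against a median of 34.1% over the 13827 replicate 2 peaks of chromosomes 6 and 9. More than 50% of the words were repeated in 7 of the 29 peaks, where 20.6% of the peaks of these chromosomes passed this limit, so that the count is near the background. Of the 7, 2 were at DEK, 4 at NUP214 and 1 at SET. The start-site peak of NUP214 had no repeated word, and neither had the peak just downstream of NUP214 nor the last peak at SET (chr9:131467336-131468239, 28 tags). The replicate 1 peak at DEK had none either, where the median of the 1563 replicate 1 peaks of these chromosomes was 6.6%. Of the peaks with a middle within 1 kb of a TSS, that before SET (57.6%) and that in intron 3 of SET (49.9%) lay on repeated sequence. Reads from repeated sequence can be placed at any of its copies, and the part of this in the peaks was not tested.

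**Figure D3:**
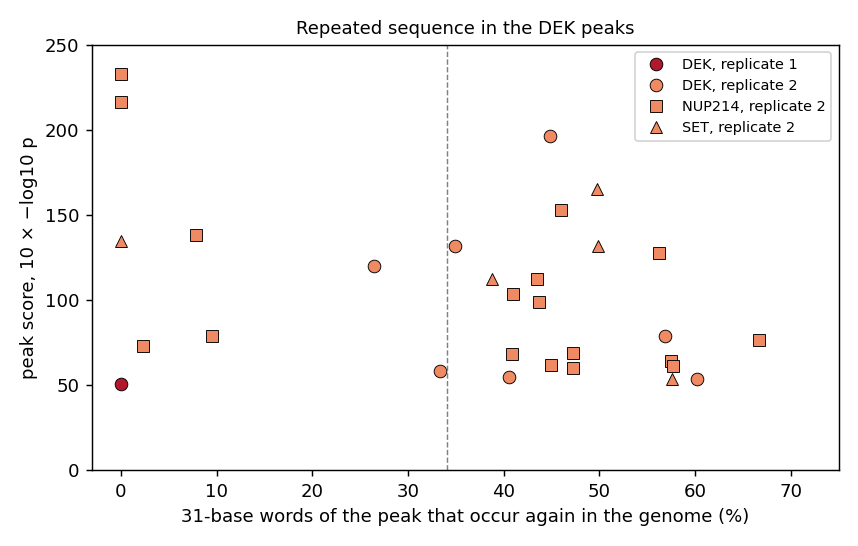
Share of 31-base words that occur again in the genome (horizontal axis, %) against the score of each peak (vertical axis) for the 30 peaks at DEK, NUP214 and SET, 1 point per peak. The dashed line is the median of the replicate 2 peaks on chromosomes 6 and 9 (34.1%), and the peaks without a repeated word include the replicate 1 peak at DEK and the start-site peak of NUP214.

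The replicate 2 peaks at the 3 genes were ordinary in strength. They held 621 tags in all, of which 119 were at DEK, 357 at NUP214 and 145 at SET. Their scores were 53.44 to 196.37 at DEK, 59.8 to 233.03 at NUP214 and 53.62 to 164.92 at SET, so that the ranges of the 3 genes overlapped. A score at or above the list median of 78.28 was reached by 17 of the 29, and 5 had 12 tags, the fewest of any peak in the list. The median number of tags was 14 at DEK, 17 at NUP214 and 28 at SET, beside 20 over the list.

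The 7 replicate 2 peaks at DEK illustrate the spread. In the gene, from the start to the end, peaks in intron 2 (14 tags, score 53.44), intron 6 (12 tags, score 58.53) and intron 9 (29 tags, score 196.37) followed each other. Upstream, 1 peak of 21 tags had a score of 119.91. Downstream of the gene, 3 peaks of 12 to 17 tags had scores of 54.51 to 131.85. The TSS nearest to these was that of the histone demethylase gene KDM1B. Their middles lay 4655 to 9312 bp downstream of it, in the direction in which KDM1B is transcribed. Only the outermost of the 3 peaks (chr6:18216219-18216543) overlapped an H3K4me3 peak, in replicate 1 but not in replicate 2.

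**Figure D4:**
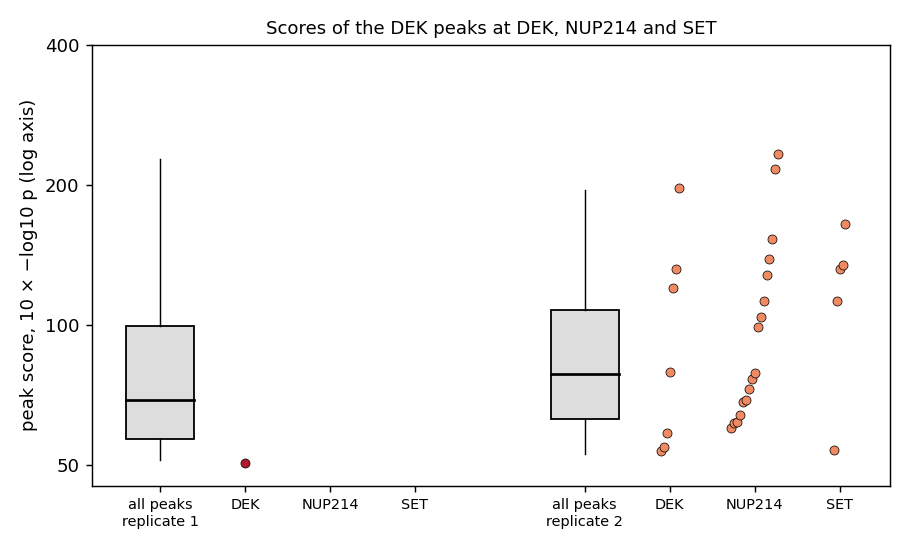
Score of each DEK peak at the 3 genes by replicate (vertical axis, log scale), 1 point per peak. The grey boxes give the middle 50% of all peaks of the list with the median as a line, and the whiskers reach from the 5% to the 95% quantile. The replicate 1 peak at DEK (50.45) is below its box, and the replicate 2 peaks lie on both sides of the median.

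The replicate 2 peaks met H3K4me3 about as seldom as the whole list did. Of the 29, 3 overlapped an H3K4me3 peak of replicate 1 and 2 one of replicate 2. Over the whole list the shares were 10.7% and 8.05%, so that the counts are near the background. The 2 were those at the start of NUP214 and before SET. Of all replicate 1 peaks 50.2% overlapped H3K4me3 of replicate 1, as did the single peak at DEK.

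The same rule was applied to 36 genes linked to the 3 members as fusion partners, as regulators or as genes of proteins that work with theirs. In the window of 7 of the 36 there was a shared interval (19.4%, against 15.7% of protein-coding genes), and 3 of the 36 had one with its middle within 1 kb of a TSS (8.33%, against 4.38%). Start-site peaks were found for 5 in replicate 1 (13.9%, against 8.45%) and for 24 in replicate 2 (66.7%, against 56.9%). H3K4me3 had a start-site peak at 34 of the 36 in each replicate, against 58.3% and 55.8% of protein-coding genes. Among genes with a TSS inside H3K4me3 in both replicates, the DEK shares were 13.7% (replicate 1), 72.3% (replicate 2) and 7.4% (shared). The shares of the 36 genes, 13.9%, 66.7% and 8.33%, were near these. The 36 were not limited to genes with such a TSS. Their replicate 2 share lay between the 56.9% of all protein-coding genes and this 72.3%.

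Among 12 genes of NUP214 fusions and of nuclear export, NUP88 and RANBP2 had a shared start-site interval (16.7%). The share was 4.38% over all protein-coding genes and 7.4% over those with a TSS inside H3K4me3 in both replicates. In replicate 2, 10 of the 12 had a start-site peak (83.3%). Over the same sets of genes the shares were 56.9% and 72.3%. Of these 10, ABL1, SQSTM1, NUP98, XPO1, NXF1, the nucleoporin gene NUP62 and the mRNA export genes DDX19B and GLE1 lacked replicate 1 peaks. A start-site peak in replicate 2 without one in replicate 1 was found for 50.7% of all protein-coding genes. NUP88, the direct partner of NUP214, had its interval at chr17:5322236-5323875, with 69 tags and a score of 57.92 in replicate 1 and 49 tags and a score of 209.53 in replicate 2. RANBP2, which forms the cytoplasmic filaments, had its interval at chr2:109335118-109336419, with 71 tags (score 56.64) and 62 tags (score 185.45). For both genes the replicate 1 score was below the median of its list, 68.8. ABL1, a fusion partner of NUP214 in T-cell leukemia, had 23 peaks in replicate 2 in a window of 194.6 kb and none in replicate 1. XKR3, fused to NUP214 in another leukemia line, had none in either.

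Of 7 genes of the SET complex, 1 had a shared start-site interval (14.3%, against 4.38%, or 7.4% of genes with a TSS inside H3K4me3 in both replicates). This was HMGB2, the gene of a DNA-bending protein (chr4:174255821-174256701). It had 85 tags (score 76.57) in replicate 1 and 26 tags (score 53.58) in replicate 2. The latter score was close to the lowest of the replicate 2 list, 50. NME1, a nuclease and kinase of this complex, had a start-site peak of 101 tags in replicate 1 alone. Its score of 58.67 was below the list median of 68.8. Of 17 regulators and partners of DEK, none had a shared start-site interval, against 4.38% of the protein-coding genes. Of these, HDAC2, a histone deacetylase, had a start-site peak in each replicate, of which that of replicate 1 (26 tags, score 62.27) overlapped none of replicate 2. Among the factors known to activate DEK, NFYA, NFYC and ESR1 had a start-site peak in replicate 2, and E2F1, NFYB and YY1 did not. ESR1, the gene of the estrogen receptor, had 24 peaks in replicate 2, 6 in replicate 1 and 3 shared intervals in its window. This window was 492.9 kb long, where the median over protein-coding genes was 47.2 kb. The other 5 had 3 to 16 peaks in replicate 2 and none in replicate 1. Their windows were all shorter than that of ESR1, and these counts were not scaled to length.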

How the data were processed

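Chromatin immunoprecipitation and sequencing were performed by the authors in U937 cells. They aligned the reads to hg19 with Bowtie2 and called peaks in each precipitation alone with MACS 1.4.1 at default parameters, with non-precipitated chromatin as the control. Of each DEK peak the deposited lists give the number of tags (a count), the MACS score, the ratio to the local background (fold enrichment) and the false discovery rate as a percent. The H3K4me3 lists give positions only. The tags in peaks summed to 988363 in replicate 1 and 4172422 in replicate 2.

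Peaks were assigned to genes by an overlap of at least 1 bp with the gene body extended by 10 kb. Shared intervals were intersections of the 2 lists of at least 1 bp. Positions are 1-based, and the summit was counted from 1 at the first base of the peak. Distances were taken from the middle of a peak to the TSSs of all annotated transcripts, and introns were numbered in the canonical transcript. The background was all 20163 protein-coding genes. Words of 31 bases were counted over the whole GRCh37 primary assembly. With 2 precipitations and no value per region outside the peaks, no test between conditions was made. Intervals of tags are exact Poisson intervals and cover counting error only. The members and lists were chosen with earlier results of these data known. The named genes are the 3 members, genes with a TSS in or next to their windows, and genes of the lists. FAM78A and KDM1B, whose TSSs are outside the windows, were added after their values were seen. Matplotlib 3.10.9, Numba 0.67.0, SciPy 1.17.1, pandas 2.3.3 and NumPy 2.4.6 were run under Python 3.11.15. In 40 of 40 simulated pairs of lists the interval counts equalled a direct count. The summit sequences of 2 intronic peaks are not reported here.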

Additional observations from a re-analysis of the deposited data

How the results depend on the processing

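Of 106 alternative values, 38 differed from the reported one, counts by more than 1.5 times and the 4 percentiles by any amount. With the gene body alone, DEK had 0 peaks in replicate 1 and 3 in replicate 2, NUP214 had 11 and SET 1 in replicate 2, and DEK had 1 H3K4me3 peak in each replicate. With 50 kb on each side, replicate 1 had 2 peaks at DEK and 1 at NUP214, replicate 2 had 30 at NUP214 and 20 at SET, NUP214 had 1 shared interval, and H3K4me3 had 4 peaks at DEK in replicate 1 and 7 and 6 at NUP214. A score of at least 100 left DEK 0 peaks in replicate 1 (0 at its start) and 3 in replicate 2, NUP214 7 in replicate 2, and SET 1 start-site peak. With replicate 2 limited to its 15017 highest scores, DEK had 1 peak, NUP214 2 with 1 at a start site, and SET 1 with 0 at a start site. With the canonical TSS only, replicate 2 had 1 start-site peak at NUP214 and 0 at SET, and within 2 kb of a TSS it had 4 at NUP214. The 0 shared intervals of each gene became 7 (DEK), 17 (NUP214) and 5 (SET) without replicate 1, and 1, 0 and 0 without replicate 2. The 0 shared start-site intervals became 0, 2 and 2 without replicate 1, and 1, 0 and 0 without replicate 2. Asking for 50% of both peaks to overlap changed no shared count. By tags per kb instead of tags, the median percentile in the list became 4.06 (DEK, replicate 1), 69.39 (DEK, replicate 2), 44.99 (NUP214) and 63.59 (SET), from 4.23, 15.26, 33.86 and 71.53. No paired analysis was possible because the results come from no test. The unknown depth limits what the absence of a peak can show.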
